A study of Mus musculus with 5 samples.

Results

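The genes described here encode myeloid and related surface receptors: the C-type lectins (Clec), the sialic acid-binding Siglecs, the multi-pass membrane Ms4a proteins, the Cd300 receptors and the Trem receptors. Members were chosen by name, as every row of the deposited table whose symbol begins with one of these stems, less 1 Trem gene that the rule leaves out. There were 58 such genes of 18044: 27 Clec, 5 Siglec, 13 Ms4a, 8 Cd300 and 5 Trem genes. RNA came from the pelvis-kidney junction, where the renal pelvis joins the kidney, of C57BL/6 mouse embryos at E18.5, late gestation. The junctions of all embryos were pooled and broken up with collagenase, and cells were sorted on an antibody to the cation channel HCN3. The series has 2 libraries labelled HCN3-positive, described as urinary tract pacemaker cells, and 3 labelled HCN3-negative, with no treatment or mutation in either group. The labels do not say whether each library had its own pool of embryos. The p-values below therefore reflect the spread between libraries alone, and that spread may be technical. The libraries are named here by label as positive 1 and 2 and negative 1, 2 and 3.

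Most of these receptors are known from macrophages, monocytes, dendritic cells, neutrophils, mast cells and lymphocytes. C-type lectins, Siglecs, Cd300 and Trem receptors come as activating members, which signal through small adaptors such as Tyrobp and Fcer1g to the kinase Syk, and as inhibitory members, whose tails recruit phosphatases such as Ptpn6. Their ligands include fungal and bacterial glycans, sialic acids, and lipids exposed on dying cells. A few genes with the same name stems are known from other cells, such as Clec14a from blood vessel endothelium, and some Clec genes encode secreted proteins.

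Levels are given as normalized read counts, that is, reads divided by the size factor of the library. Between 24588864 and 39034478 reads per library fell in genes. The deposited table compares a division of the libraries that is not that of the labels: the libraries labelled positive 1 and negative 2 form one side, called the first set. Those labelled positive 2, negative 1 and negative 3 form the other, called the second set, and values are always listed in this order, the 2 of the first set and then the 3 of the second. With these sets, the fold of 100% of the table's 18047 rows is recovered from library means within 0.01. By its name the deposited comparison is of HCN3-negative against HCN3-positive, and its sets of 2 and 3 libraries have the sizes of the labelled groups. Its columns do not say which set is which sort. Whether labels were exchanged between libraries is not stated and was not tested. Hcn3 itself was at 0 and 32.2 in the first set and at 44.5, 103 and 41.9 in the second, so its transcript did not follow the labels, and every direction by label rests on the labels alone.

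By label, no receptor passed the test. The question of this comparison is which transcripts set the sorted HCN3-positive cells apart. Of the 53 members with a mean of at least 5, 0 passed limma at an adjusted p of 0.05 in either direction, beside 0.0% of 16579 genes tested in each direction. The smallest adjusted p of a member was 1.00. EdgeR and DESeq2 also called 0 members, beside 0.0% of genes in each direction in edgeR and, in DESeq2, 0.00613% higher and 0.0552% lower in the libraries labelled positive. At an unadjusted p under 0.05 there were 0 members in each of the 3 tools. Each labelled group holds libraries of both sets, so differences between the sets widen the spread within it. For example, the limma log2 ratio by label was 3.00 for Clec4a3, with a standard error of 4.81, and 4.19 for Treml4, with 4.69. The lack of a call therefore does not show equal levels in the labelled groups. Over the 53 members the log2 ratio of the libraries labelled positive to those labelled negative was above 0 in 41 and below 0 in 12, with a median of 1.17, where all genes tested had a median of -0.03. That median rested on single libraries: it came to -1.45 on leaving out positive 1, -0.12 on leaving out negative 1 and 0.43 on leaving out negative 3, and came to 3.25 and 4.796 on leaving out negative 2 and positive 2. The labelled groups did not overlap in 1 of 58 members (Clec3b, lower in the libraries labelled positive, with 19 reads or fewer in any library), beside 5.4% of all genes in that direction. Of 58 members 0 lay wholly above in the libraries labelled positive, beside 5.26% of all genes.

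Between the 2 sets of the deposited table, most of the myeloid receptors differed by wide margins. At an adjusted p under 0.05 in the authors' deposited table, 32 of 58 members (55.2%) were higher in the first set, beside 8.1% of 18044 genes, and 1 (Clec14a) was higher in the second set, beside 6.09% (14.2% of all genes in either direction). The 32 called higher were 13 Clec, 3 Siglec, 7 Ms4a, 5 Cd300 and 4 Trem genes. Their mean level in the first set ran from 45.0 to 14929 with a median of 2564, and in the second set from 0 to 169 with a median of 6.35. Of the 32, 5 had 0 reads in positive 2, 17 in negative 1 and 7 in negative 3, and 3 had 0 reads in all of these. Over all 58 members the median of log2((first mean + 1)/(second mean + 1)) was 5.53, and over all 18044 genes it was -0.08. The first set lay wholly above the second in 38 members (65.5%), beside 22.1% of all genes, and wholly below in 6, beside 24.9%. Together the 58 genes took 0.421% (0.419% to 0.424%) and 0.335% (0.333% to 0.337%) of all gene reads in the first set. In the second set they took 0.0277% (0.0272% to 0.0282%), 0.0258% (0.0252% to 0.0263%) and 0.0319% (0.0313% to 0.0325%), with 95% exact (Clopper-Pearson) intervals that cover counting error only.

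**Figure D1:**
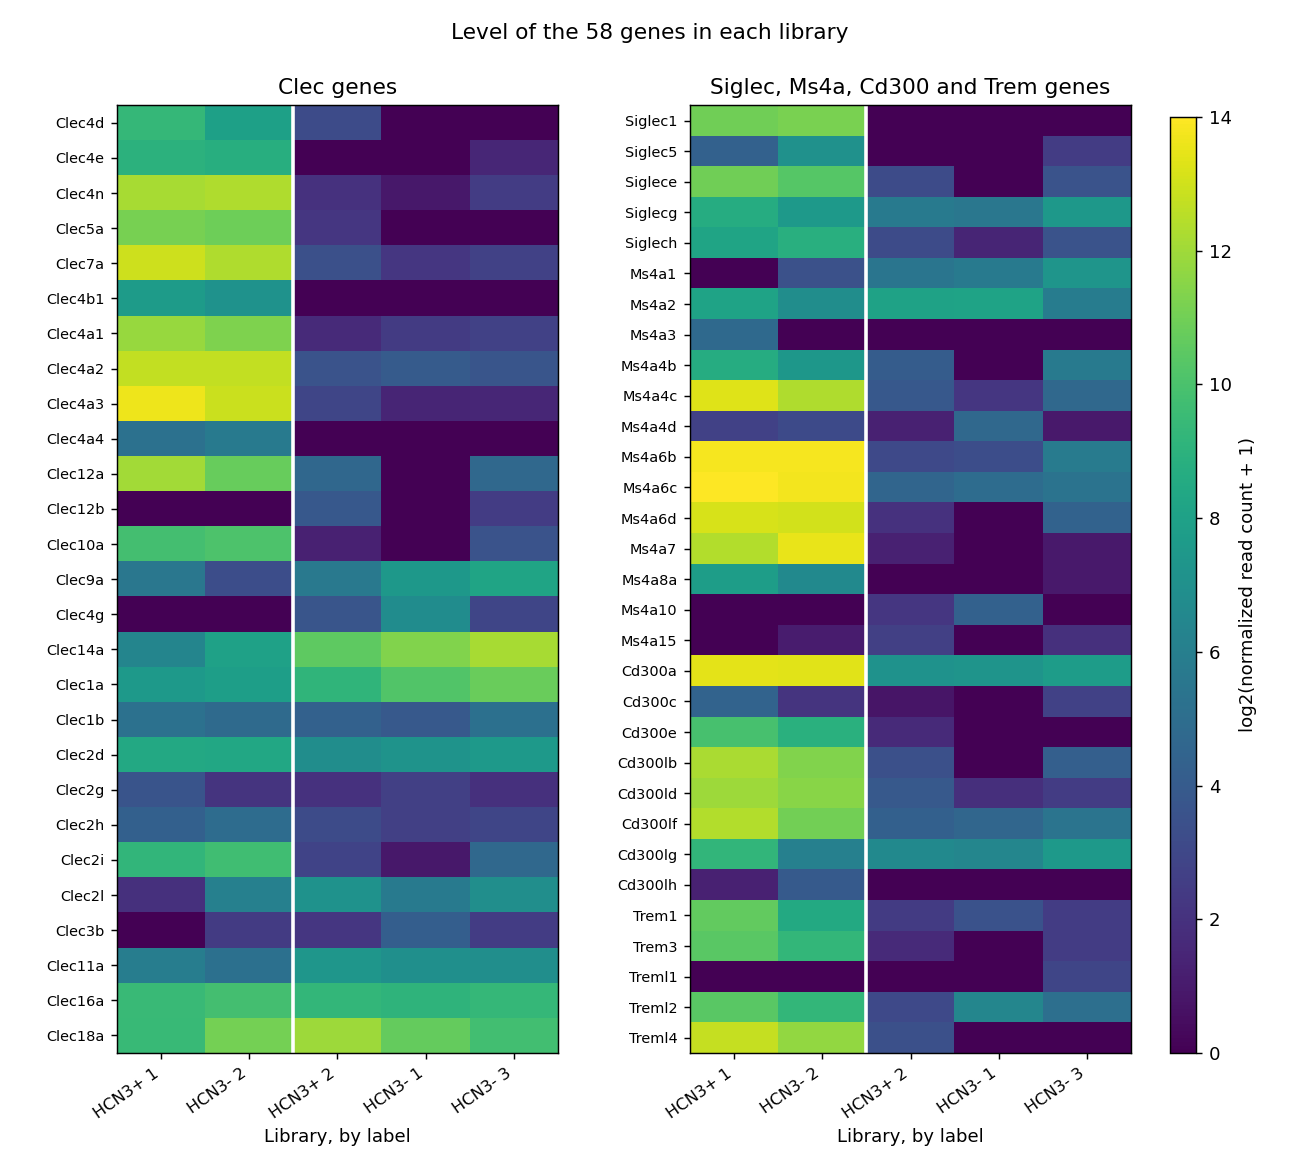
Level of each of the 58 genes (rows) in each library (columns, by label) as log2(normalized read count + 1), with a white line between the first set (left, 2 libraries) and the second set (right, 3 libraries). Of the 58 genes, 38 were higher in both libraries of the first set than in any of the second. The opposite held for 6, among them Clec14a and Clec1a.

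Most calls were shared by the other tests. Limma over the same division called 32 of 53 members tested higher and 2 lower in the first set, beside 10.6% and 9.88% of genes. EdgeR called 31 and 2, beside 9.95% and 7.08%, and DESeq2 33 and 6, beside 13.6% and 13.7%. Ms4a4b, called in the authors' deposited table, passed in none of these 3 (adjusted p of 0.0918 in limma, 0.153 in edgeR and 0.0606 in DESeq2). Without the library labelled positive 1, which leaves 1 library in the first set, limma called 25 members higher. The calls lost then were Cd300lb (adjusted limma p of 0.0548), Clec12a (0.104), Clec2i (0.072), Clec4d (0.0764), Siglece (0.055) and Treml2 (0.134) among members with a mean of at least 100. Without the library labelled negative 2, limma did not call Clec12a (0.058), Clec2i (0.0646) and Treml2 (0.0638). Leaving out any of the libraries labelled positive 2, negative 1 and negative 3 ended no further call of the authors' deposited table among members with a mean of at least 100, and Ms4a4b passed in no such fit. A library left alone in its set was assumed to vary like the others.

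**Figure D2:**
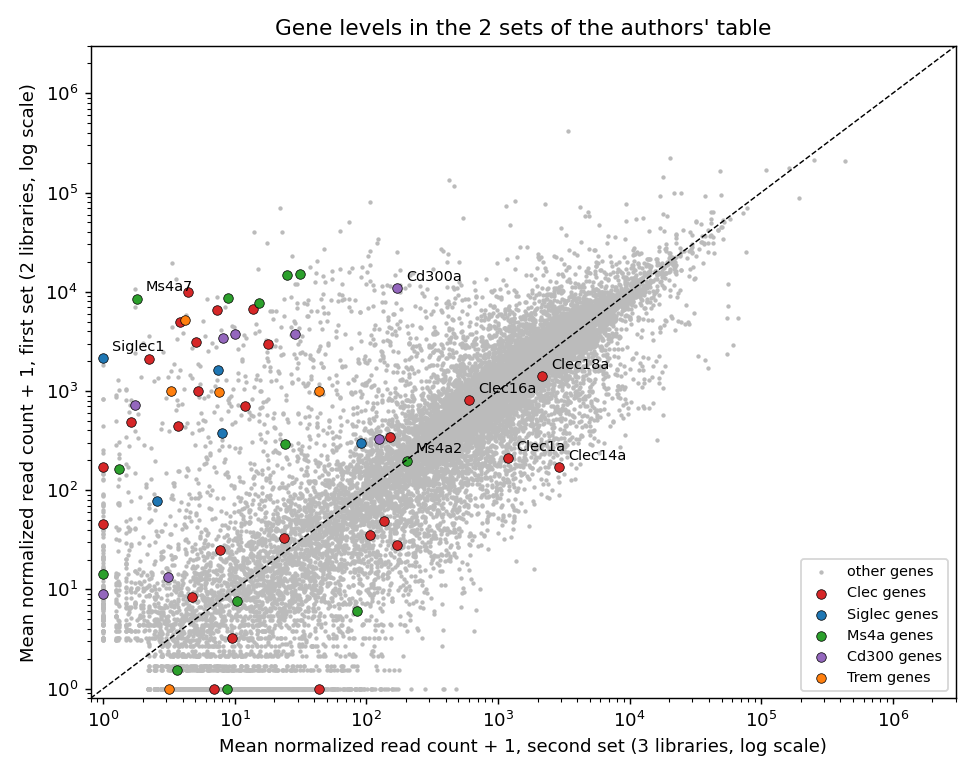
Mean normalized read count + 1 of every gene in the second set (horizontal, 3 libraries) and in the first set (vertical, 2 libraries), both on log scales, with the 58 genes in colour by family and all others in grey. The dashed line marks equal levels. Ms4a7 and Siglec1 lie at the upper left, Ms4a2, Clec16a and Clec18a near the line, and Clec14a and Clec1a below it.

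The promoters of these genes were compared because 32 of the 58 were called in the same direction. Of the 58 genes, 47 had at least 1 promoter window of 300 bases (250 before to 50 after the start) in RefSeq's annotation of GRCm38.p6, with 52 windows in all. The letters GAGGAA, the core read by the myeloid factor PU.1, were searched on both strands (TTCCTC on the other). They stood in 30 of 52 member windows (57.7%), and in 28.3% of 32851 windows of all genes. The share was 65.5% (19 of 29 windows) among members called higher in the first set and 47.8% (11 of 23) among the others. The Ets and interferon regulatory factor composite element, which can overlap the former motif, was searched on both strands as well. It stood in 5 of 29 and 0 of 23 windows, and in 2.72% of all windows. Windows of members held a median of 3 CpG pairs, where windows of all genes held 7. Windows of 1 gene can overlap, and a match of letters is a description, not a bound site. The 100 bases before the start are shown, 5′ to 3′, for the member of each family with the highest first-set mean among those with GAGGAA there, for Clec7a, and for Ms4a6c, the member with the highest first-set mean, which lacks it in this stretch; capitals mark GAGGAA or TTCCTC.
Cd300a (chr11:114889941-114890040, plus strand): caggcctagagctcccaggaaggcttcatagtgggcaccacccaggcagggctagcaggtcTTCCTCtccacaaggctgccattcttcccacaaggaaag
Clec4a3 (chr6:122952544-122952643, plus strand): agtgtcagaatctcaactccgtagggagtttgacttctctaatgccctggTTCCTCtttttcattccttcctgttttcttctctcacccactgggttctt
Ms4a4c (chr19:11407561-11407660, plus strand): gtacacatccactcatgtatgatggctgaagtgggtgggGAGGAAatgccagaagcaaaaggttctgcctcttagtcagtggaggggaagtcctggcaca
Treml4 (chr17:48264195-48264294, plus strand): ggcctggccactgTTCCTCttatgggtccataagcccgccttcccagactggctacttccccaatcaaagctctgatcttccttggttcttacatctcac
Siglece (chr7:43660162-43660261, minus strand): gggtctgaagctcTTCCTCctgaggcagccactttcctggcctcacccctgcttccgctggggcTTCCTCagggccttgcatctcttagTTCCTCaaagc
Clec7a (chr6:129472780-129472879, minus strand): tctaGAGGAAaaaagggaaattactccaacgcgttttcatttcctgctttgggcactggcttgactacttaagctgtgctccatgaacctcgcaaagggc
Ms4a6c (chr19:11469268-11469367, plus strand): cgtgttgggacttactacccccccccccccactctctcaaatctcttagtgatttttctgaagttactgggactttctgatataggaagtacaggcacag

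Siglece held the motif at 3 positions in this stretch, which begin at -87, -36 and -11 from the start. In Cd300a, Clec4a3, Ms4a4c, Treml4 and Clec7a it began at -39, -50, -61, -87 and -96. All positions are counted from RefSeq's start. In GENCODE M21 the genes Clec4a3 and Ms4a4c begin further upstream, at 122952515 and 11404770. By that annotation their printed stretches lie within the gene. Ms4a6c, which lacks these letters here, had the highest first-set mean of the 58 genes.

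All 6 activating myeloid lectins were called higher in the first set. Clec7a (mm10 chromosome 6, 129461591 to 129472779, minus strand), the beta-glucan receptor Dectin-1, was at 7967 and 5194, against 9.64, 3.56 and 5.58 in the second set, which is 1051-fold by the means, with an adjusted p of 1.48e-34 in the authors' deposited table. Clec4n, the mannan receptor Dectin-2, was at 4653 and 5192, against 2.97, 0.891 and 4.65 in the second set (1735-fold, adjusted p of 1.40e-70 in the authors' deposited table). Both were high in both libraries of the first set and at most 13 reads in any of the second. Clec5a, which signals through Tyrobp, was at 2214 and 1951, against 3.71, 0 and 0 in the second set. Clec4e, known as Mincle, a sensor of mycobacterial glycolipid, was at 519 and 442, against 0, 0 and 1.86 in the second set, and its partner Clec4d at 629 and 247, against 8.16, 0 and 0 in the second set. The lowest of the 6 was Clec4b1, an activating relative of the Clec4a lectins, at 202 and 139.8, against 0, 0 and 0 in the second set, at least 66.6-fold higher against a floor of 3 reads per library. For Clec4e, with 2 reads in the second set, the ratio of pooled reads was 843 (95% exact interval 233 to 6975, counting error only). All 6 lay wholly above in the first set, beside 22.1% of all genes.

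Of 6 Clec4a and Clec12 lectins 5 were called higher in the first set. Clec4a2, the inhibitory receptor DCIR of dendritic cells, was nearly equal in the 2 libraries of the first set, at 6618 and 6782, against 11.1, 15.1 and 12.1 in the second set (524-fold, adjusted p of 1.32e-65 in the authors' deposited table). Clec4a3 (chromosome 6, 122952515 to 122969875, plus strand) was the highest lectin, at 12696 and 7391, against 6.68, 1.78 and 1.86 in the second set (2920.1-fold, adjusted p of 5.73e-26 in the authors' deposited table). Clec4a1 was at 3638 and 2524, against 2.23, 4.45 and 5.58 in the second set. Clec12a, an inhibitory receptor that binds uric acid crystals, was at 4254 and 1736, against 24.5, 0 and 26.0 in the second set. Clec4a4 had far fewer reads, at 36.6 and 53.3, against 0, 0 and 0 in the second set, and 15.7% of the 50-base words of its annotated transcripts occur in other genes, mostly Clec4a2, so its reads are uncertain. Clec12b, the member not called, had 0 reads in the first set, against 23 in the second. Per kilobase of annotated exon, the mean normalized count in the first set was 7569 for Clec4a3, 2289.9 for Clec4a2 and 2495 for Clec7a, but 96.7 for Clec4e.

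Of 3 endocytic and dendritic cell lectins 1 was called higher in the first set. Clec10a, a galactose-binding lectin of macrophages, was at 895 and 1079.9, against 1.48, 0 and 11.2 in the second set (234-fold, adjusted p of 3.07e-28 in the authors' deposited table). Clec9a, the receptor by which cross-presenting dendritic cells detect actin of dead cells, was at 45.1 and 8.88, against 49.7, 173 and 283 in the second set (adjusted p of 0.229 in the authors' deposited table). It was lower in both libraries of the first set than in any of the second, without passing. In DESeq2 it passed (adjusted p of 0.0469). Its exons overlap those of Clec1b on the same strand over 5.59% of their length. Clec4g, a lectin of sinusoidal endothelium, had 0 reads in both libraries of the first set and was at 11.9, 110.5 and 6.51 in the second, so that 1 library, labelled negative 1, held most of it.

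Among the 5 Clec2 genes, some of which encode ligands of natural killer cell receptors, 1 was called. Clec2i was at 598 and 826, against 5.93, 0.891 and 26.0 in the second set (65.0-fold, adjusted p of 3.29e-17 in the authors' deposited table). Clec2d, the ligand of an inhibitory receptor of natural killer cells, was at 348 and 333, against 116, 148 and 186 in the second set, which did not overlap but did not pass (adjusted p of 0.243 in the authors' deposited table; 0.025 in DESeq2). Clec2l was at 2.82 and 66.6, against 142, 54.3 and 122 in the second set, so that the library labelled positive 1 stood below the other 4. Clec2g and Clec2h had at most 27 reads in any library.

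Of 5 Siglecs 3 were called higher in the first set. Siglec1 (chromosome 2, 131069220 to 131086765, minus strand), the sialic acid-binding adhesion receptor of tissue macrophages, was at 1973 and 2293, against 0, 0 and 0 in the second set. Its 3466 reads in the first set against 0 of the second put it at least 832-fold higher against a floor of 3 reads per library (adjusted p of 6.16e-57 in the authors' deposited table). Siglece, an inhibitory receptor of myeloid cells, was at 1961 and 1282, against 8.16, 0 and 11.2 in the second set (252-fold). Siglech, known from plasmacytoid dendritic cells and microglia, was at 292 and 453, against 8.16, 1.78 and 11.2 in the second set (52.9-fold). Siglecg, an inhibitory receptor of B cells, was at 405 and 185, against 51.2, 46.3 and 174 in the second set, a 3.26-fold difference that did not pass (adjusted p of 0.203 in the authors' deposited table). Siglec5, the row that RefSeq's synonyms place at Siglecf, the eosinophil and alveolar macrophage receptor, differed within the first set, at 19.7 and 133, against 0, 0 and 4.65 in the second set. It did not pass in the authors' deposited table (adjusted p of 0.0887), but it did in limma (0.048). RefSeq lists the same synonym for Siglece, which has its own row.

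Of the 7 genes Ms4a4c, Ms4a4d, Ms4a6b, Ms4a6c, Ms4a6d, Ms4a7 and Ms4a8a, 6 were called higher in the first set. Ms4a6c was at 15974 and 13885, against 23.0, 29.4 and 39.1 in the second set (489.7-fold) and Ms4a6b at 14612 and 14594, against 7.42, 8.91 and 54.9 in the second set (615-fold). These were the highest levels of all 58 genes. Antisense exons of BE692007 cover 53.1% of the Ms4a6c exons, and 10.5% of its 50-base words occur in other genes, mostly Ms4a6b, so the division of reads between them is uncertain. Ms4a6d was at 8996 and 8304, against 2.97, 0 and 20.5 in the second set, with an adjusted p of 1.03e-76 in the authors' deposited table, the smallest of the members. Ms4a4c was at 10242 and 5165, against 13.4, 3.56 and 26.0 in the second set. Ms4a7 (chromosome 19, 11321039 to 11336146, minus strand), known from tissue macrophages, was at 5258 and 11811, against 1.48, 0 and 0.930 in the second set. With 14372 reads in the first set, against 3 in the second, it had a ratio of pooled reads of 10547 (95% exact interval 3608 to 51148, counting error only). Ms4a8a, with 1 read in the second set, gave 548 (95% exact interval 97.5 to 21738, counting error only). The member of this group that was not called, Ms4a4d, was under 26 in every library.

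Of 4 Ms4a genes known from lymphocytes, mast cells and granulocyte precursors, 1 was called. Ms4a2, the beta chain of the high-affinity IgE receptor of mast cells and basophils, was at 282 and 114, against 269, 281 and 56.7 in the second set (0.980-fold, adjusted p of 1 in the authors' deposited table). The sets overlapped, and the library labelled negative 3 was lowest. The 7 mast cell markers summed to 10678 and 10420.2, against 6319, 4596 and 8314 in the second set, with 0 of 7 called, and most of that sum came from Kit and Hdc. Ms4a1, which encodes the B cell protein CD20, was at 0 and 9.99, against 43.0, 53.5 and 154 in the second set, lower in both libraries of the first set without passing (adjusted p of 0.129 in the authors' deposited table). The 5 B cell markers in the table summed to 2791 and 3267, against 351, 113 and 1632 in the second set. Of these, 1 of 5 was called, beside 14.2% of all genes in either direction, and Vpreb1 and Igll1 had 0 reads in the first set. Cd79b, the 1 called, was higher in the first set, at 2739 and 3181, against 180.3, 56.1 and 734 in the second set. Ms4a4b, known from T cells, was at 413 and 168, against 15.6, 0 and 54.0 in the second set, and lost its call with the other tests, as stated above. The 4 T cell markers in the table summed to 42.3 and 211, against 521, 141 and 879 in the second set, with 0 of 4 called, and of these Cd3e and Cd3g had 0 reads in the first set. Ms4a3, known from granulocyte and monocyte precursors, was at 26.8 in the library labelled positive 1 and had no read in the other 4. Ms4a10 and Ms4a15 lay under 20 in every library.

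Of 8 Cd300 genes 5 were called higher in the first set. Cd300a (chromosome 11, 114890041 to 114904654, plus strand), an inhibitory receptor for lipids of dying cells, was at 11136 and 10675, against 141, 153 and 214 in the second set (64.4-fold, adjusted p of 9.75e-42 in the authors' deposited table). Its level in the second set was the highest there of the 32 called genes. Cd300lf, which also carries inhibitory motifs, was at 5438 and 2052, against 18.55, 24.1 and 40.9 in the second set (135-fold). The activating receptors Cd300lb and Cd300ld were at 4839 and 2641, against 9.64, 0 and 17.7 in the second set, and at 3879 and 2899, against 14.1, 2.67 and 4.65 in the second set (411-fold and 475-fold). Cd300e, an activating receptor of monocytes, was at 979.7 and 475, against 2.23, 0 and 0 in the second set, with 3 reads in the second set and a ratio of pooled reads of 824 (95% exact interval 281 to 4002, counting error only). Cd300lg, which lies outside the gene cluster and is known from capillary and venous endothelium, was at 592 and 66.6, against 97.2, 85.5 and 186 in the second set. The library labelled positive 1 stood above the other 4, and the adjusted p was 0.765 in the authors' deposited table. Cd300c was under 22 and Cd300lh under 15 in every library, and 82.1% of the 50-base words of Cd300lh (Cd300ld3 in the annotation) occur in other genes.

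Among the Trem genes 4 of 5 were called higher in the first set, each higher in the library labelled positive 1 than in negative 2. Treml4, a receptor of macrophages and dendritic cells that binds dead cells, was at 6994 and 3335, against 9.64, 0 and 0 in the second set (1607-fold, adjusted p of 4.90e-13 in the authors' deposited table). Trem3, an activating receptor that signals through Tyrobp, was at 1381 and 610.4, against 2.23, 0 and 4.65 in the second set (434-fold). Trem1, which amplifies inflammatory responses of neutrophils and monocytes, was at 1580.2 and 358, against 4.45, 10.7 and 4.65 in the second set (147-fold, adjusted p of 0.00835 in the authors' deposited table). Treml2 was at 1391 and 608, against 7.42, 86.4 and 33.5 in the second set (23.6-fold, adjusted p of 5.62e-04 in the authors' deposited table). Treml1, a protein of platelet granules, was at 6.51 in the library labelled negative 3 and at 0 in the other 4.

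Of 3 lectins of endothelium and platelets 1 was called, higher in the second set. Clec14a (chromosome 12, 58264720 to 58269290, minus strand), an endothelial glycoprotein that takes part in vessel sprouting, was at 83.2 and 257, against 1459.9, 2641 and 4602 in the second set, 17.0-fold higher in the second set (adjusted p of 0.00882 in the authors' deposited table). Clec1a, expressed by endothelium and dendritic cells, was at 185 and 232, against 581, 1157 and 1806 in the second set, 5.67-fold higher in the second set. It did not pass in the authors' deposited table (adjusted p of 0.0744) but did over all libraries in limma (0.0192), edgeR (0.024) and DESeq2 (4.39e-05). Within the second set both were lowest to highest in the libraries labelled positive 2, negative 1 and negative 3. The 8 endothelial markers summed to 7264 and 8699, against 31821, 52905 and 120201 in the second set, the same order, with 8 of 8 not overlapping and 1 of 8 called in the authors' deposited table. Their part in the levels of Clec14a and Clec1a was not tested. In bulk samples such as these, fewer cells of a type and less RNA per cell cannot be told apart. Clec1b, the podoplanin receptor of platelets, was at 36.6 and 27.7, against 19.3, 14.3 and 34.4 in the second set.

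The remaining Clec genes, grouped as secreted or other, had no call in the authors' deposited table: 0 of 4 passed. Clec16a, which acts in autophagy, was at 710.4 and 891, against 609.8, 552 and 633 in the second set. Clec18a was at 679 and 2118, against 3994, 1645 and 874 in the second set, with the sets overlapping. Clec11a, a secreted growth factor of bone and blood progenitors, was at 60.6 and 35.5, against 163, 127 and 118 in the second set, 2.83-fold higher in the second set. It did not pass in the authors' deposited table (adjusted p of 0.376) or in limma, but did in DESeq2 (0.0459). Clec3b, which encodes the secreted plasminogen-binding protein tetranectin, had 4 reads in the first set, against 29 in the second.

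Several marker lists of cell types differed between the same sets, and others did not. Of the urothelium and collecting duct markers 0 of 7 were called, of the proximal tubule markers 0 of 4 and of the natural killer cell markers 0 of 5. Higher in the first set were 2 of 7 dendritic cell, 2 of 5 plasmacytoid dendritic cell and 1 of 4 eosinophil markers. Platelet and megakaryocyte markers summed to 10486 and 22165, against 136, 168 and 278 in the second set. Of these, 1 of 5 was called, higher in the first set, and their median log2 ratio was -0.28. The macrophage markers, 10 genes with Emr1 standing for Adgre1, summed to 218006 and 354278, against 1850.1, 2428 and 6904 in the second set. Of these, 9 of 10 were called higher in the first set, beside 8.1% of all genes. Csf1r, the receptor that macrophages need to survive, was at 92159.9 and 139878, against 422, 423 and 546 in the second set. The monocyte markers summed to 73368 and 38709.6, against 15886, 31838 and 10269.5 in the second set. Of these, 4 of 5 were called higher in the first set, beside 8.1% of all genes. The median of log2((first mean + 1)/(second mean + 1)) over these 5 genes was 6.92. Their second-set sums therefore do not stand for most of them. The smooth muscle markers, with 5421 and 3246 in the first set, ranged from 19556 to 125332 in the second. Markers of fibroblasts, smooth muscle and epithelium of the junction were detected in every library. Podocyte markers summed to 11326 and 5930, against 30736, 41159 and 273711 in the second set, highest in negative 3. Of these, 3 of 4 lay wholly below in the first set, beside 24.9% of all genes, and 0 of 4 were called. Of the 6 fibroblast markers 6 were called higher in the second set, beside 6.09% of all genes. Whether the receptor levels follow the amount of macrophage RNA was not tested.

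**Figure D3:**
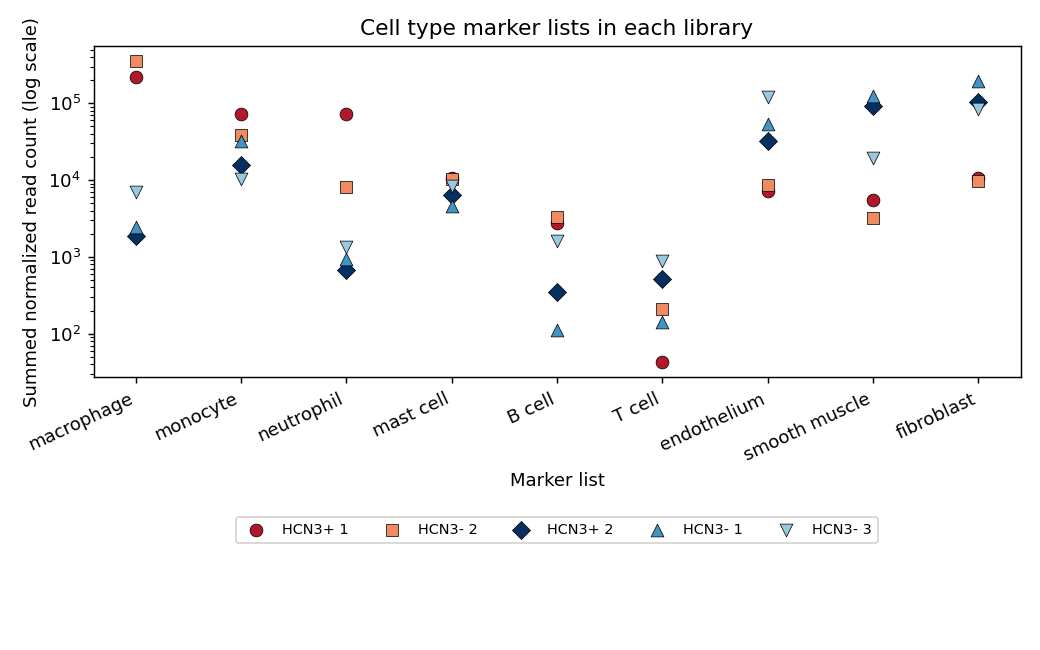
Summed normalized read count (log scale, vertical) of 9 cell type marker lists (horizontal) in each library, with red and orange symbols for the first set and blue symbols for the second. Macrophage markers reach 218006 and 354278 in the first set, against at most 6904 in the second, whereas neutrophil markers set the library labelled positive 1, at 72070.2, apart from the other 4.

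The 2 libraries of the first set, which carry opposite labels, differed in which receptors were high. This difference between 2 libraries was not tested, and the values are a description. Among the 32 called genes, 24 (75%) were higher in the library labelled positive 1 than in negative 2, and 10 (31.2%) were at least 2-fold higher. Over the 12318 genes with a first-set mean of at least 100 and reads in both libraries, 50.3% were higher and 8.35% at least 2-fold higher. The largest ratio was that of Trem1 at 4.41, followed by Cd300lf at 2.65, Clec4d at 2.54, Ms4a4b at 2.46 and Clec12a at 2.45. Ms4a7 was the 1 called gene at least 2-fold higher in the library labelled negative 2, at 2.25-fold. Ms4a6b, Clec4a2 and Cd300a were nearly even, with ratios of 1.00, 0.976 and 1.04.

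Neutrophil and macrophage markers divided these libraries too. The neutrophil markers, 9 of 10 in the table, summed to 72070.2 and 8197, against 684, 926 and 1355 in the second set. Between the sets, 2 of these 9 were called, higher in the first, beside 8.1% of all genes. S100a8, a calcium-binding protein of neutrophils, was at 20708 in positive 1 and at 2460.5 in negative 2. The monocyte markers Ly6c2 and Ccr2 were at 13037 and 24758 in the first of these libraries and at 6096 and 12762 in the second. The macrophage markers Mrc1 and Emr1 were lower in the first of them, at 24180.3 and 28850.4, against 57977 and 51486. The part of these cell types in the receptor ratios was not tested.

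**Figure D4:**
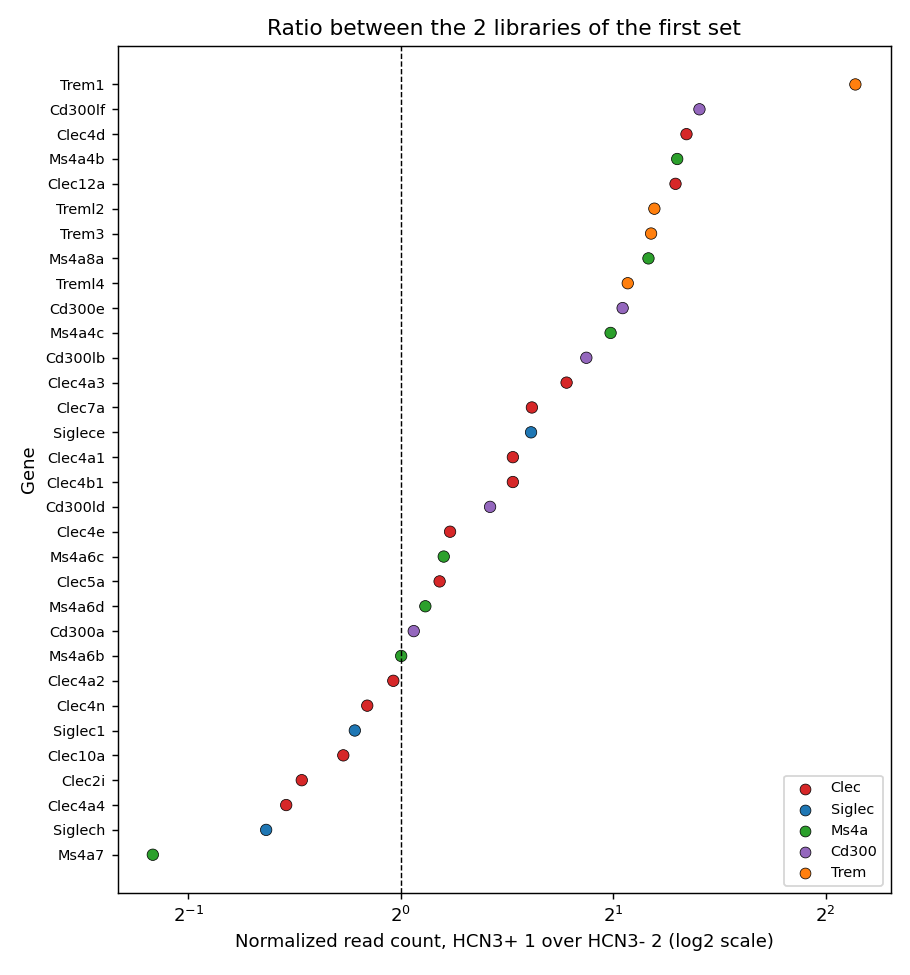
Normalized read count in the library labelled positive 1 over that in the library labelled negative 2 (log2 scale, horizontal) for the 32 genes called higher in the first set (vertical), coloured by family. The dashed line marks an equal level. All 4 Trem genes and 4 of the 5 Cd300 genes lie at 1.34 or above, and Ms4a7 is lowest at 0.445.

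The members lie in clusters, which the naming rule did not use. With GENCODE M21 (mm10), 43 of 58 lay in 5 clusters of at least 5 members no more than 1 megabase apart. These held 27 of the 32 genes called higher in the first set. Whether called genes lie in clusters more often than the other members was not tested. The calls per cluster below stand beside 55.2% called higher over all members and 8.1% over all genes. All 8 genes of the Clec4 cluster on chromosome 6 (122921848 to 123289870), from Clec4a1 to Clec4e, were called. In the neighbouring lectin cluster (chromosome 6, 128662385 to 129472779) 3 of 10 were called, Clec2i, Clec12a and Clec7a. Between Clec12a and Clec7a stand Clec12b, Clec1b, Clec9a and Clec1a, which had no call. The Ms4a cluster (chromosome 19, 10962293 to 11640851) had 7 of 13 called, with Ms4a1 beside Ms4a7 in the opposite direction. The Cd300 cluster (chromosome 11, 114890041 to 115133992) had 5 of 7, and the Trem cluster (chromosome 17, 48232768 to 48367176) 4 of 5.

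**Figure D5:**
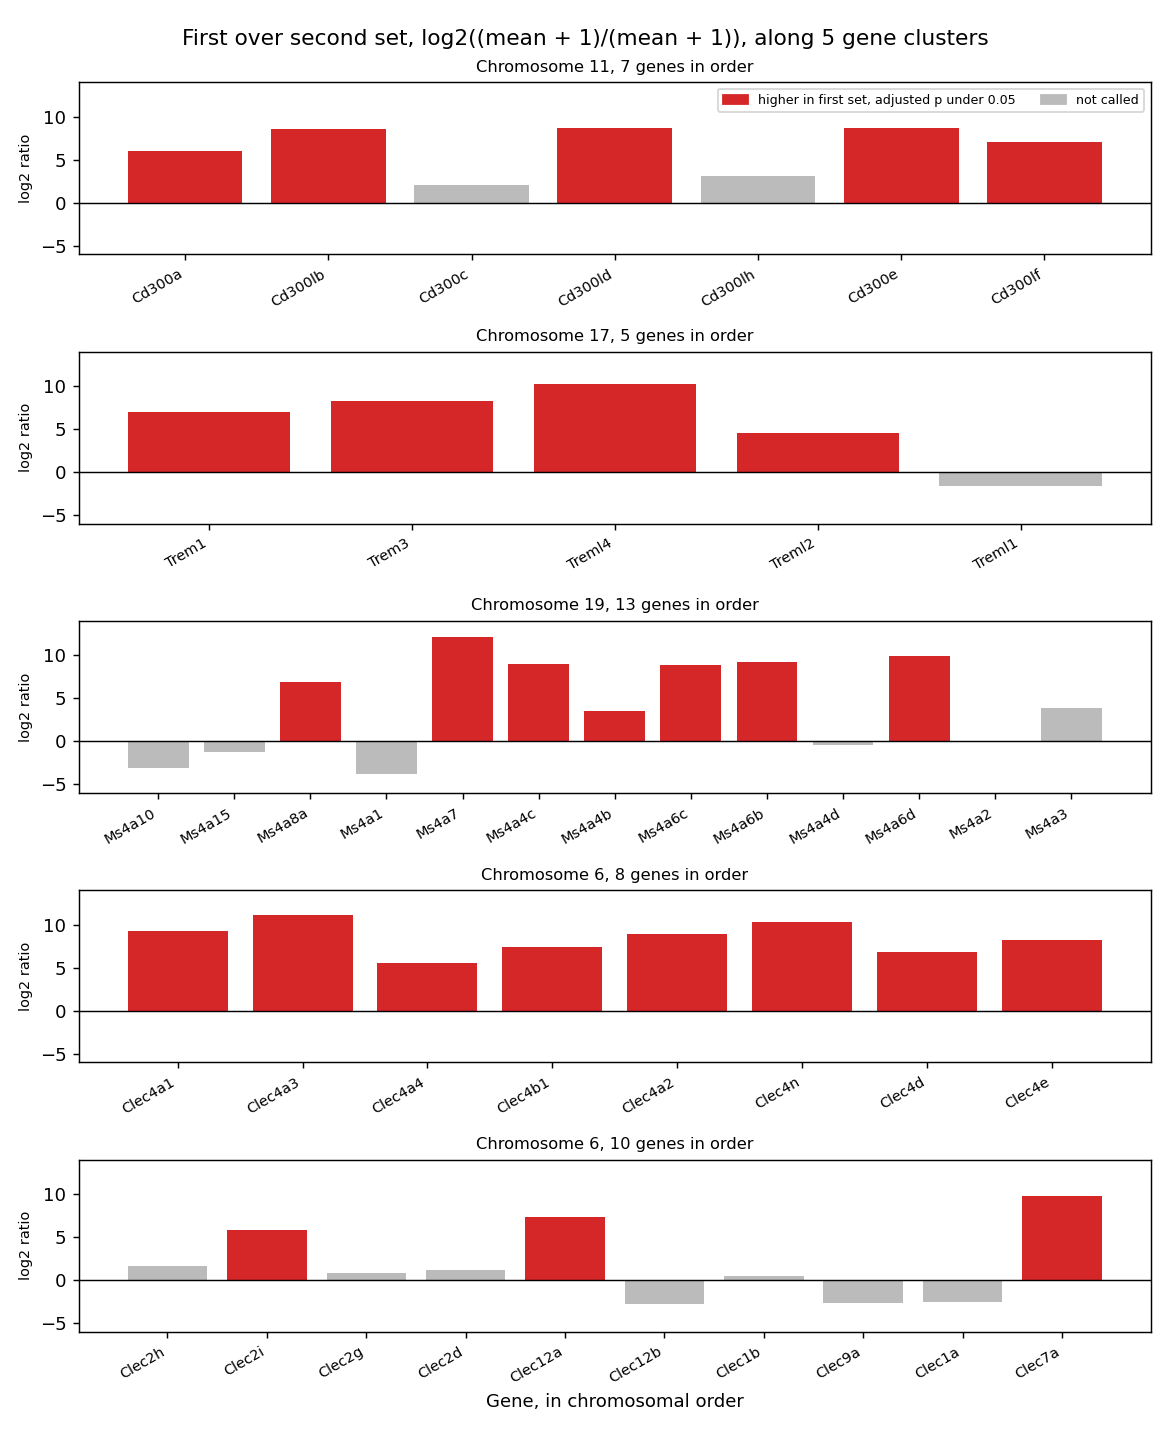
Log2((first-set mean + 1)/(second-set mean + 1)) of each gene (bars, vertical) in chromosomal order (horizontal) along the 5 clusters, red where the authors' deposited table called the gene higher in the first set and grey where it did not. Every bar of the Clec4 cluster is red, while called and uncalled genes stand side by side in the second chromosome 6 cluster and in the Ms4a cluster.

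Genes that carry the signals of these receptors were higher in the first set as well. Of 16 signalling partners 13 were called higher in the first set in the authors' deposited table, beside 8.1% of all genes. In the other direction 0 were called, beside 6.09%. By label 0 passed in limma, beside 0.0% of genes tested in each direction. The adaptors Tyrobp and Fcer1g were at 27243 and 24671, against 91.98, 33.9 and 188 in the second set, and at 31278 and 36702, against 74.9, 108 and 179.5 in the second set. The kinase Syk was at 10485 and 7027, against 739, 274 and 1027 in the second set, and the phosphatase Ptpn6, recruited by inhibitory receptors, at 25870.5 and 22224, against 478, 303 and 471 in the second set. Card9, which links Syk-coupled lectins to NF-kappa-B, was at 805 and 614, against 8.90, 1.78 and 8.37 in the second set (adjusted p of 3.56e-19 in the authors' deposited table). The 3 partners without a call were Bcl10, Malt1 and Ptpn11. The first set lay wholly above the second in 14 of the 16 partners, beside 22.1% of all genes. Ptpn11 was at 2044 and 2427, against 2702, 2303 and 2177 in the second set.

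In all, 19 members had a mean under 100 normalized counts over the libraries, of which 3 (Clec4a4, Clec4b1 and Ms4a8a) were called. Of the 39 members at or above that level 29 were called higher in the first set. Of the 58, 5 had 0 reads in all 3 libraries of the second set and 4 had 0 reads in both of the first. Clec12b, Cd300lh, Ms4a10, Ms4a15 and Treml1 had a mean under 5, and these 5 were below the filter of the main limma test by label.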

How the data were processed

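Titles gave the groups. Cells came from pooled pelvis-kidney junctions, and RNA was converted with a Clontech kit and made into Nextera XT libraries, per the labels' protocols. Strand is not stated to be kept. Among the tools in the submitters' processing notes are DESeq 1.18.0, HTSeq 0.6.1p2 and TopHat2 2.0.11, with the build mm10. The gene annotation behind the reads per gene is not named in these sources.

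The authors deposited, per the file headers, a signal column of size-factor normalized read counts for each library, means, a fold as a ratio of means and its log2, and a p-value with its adjusted p-value. Of all values above 0, 100% were whole multiples of the worth of 1 read in their library (tolerance 0.01), so whole reads were recovered for the count tests. The 3 summary rows of the read counter were left out.

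By label, limma 3.58.1 (R 4.3.3) was run on log2(normalized count + 1) for genes whose mean reached 5, 2-sided, with Benjamini-Hochberg adjustment over all genes tested. Between the sets, the authors' adjusted p was the main result, and limma, edgeR 4.0.16 and DESeq2 1.42.0 were alternatives. Folds are ratios of means; a floor is 3 reads per library. The limma code was tested on simulated counts. Members with a mean of at least 100, or that stood apart, are given per library. Members, lists, roles and clusters were chosen with earlier results of these data known. Coordinates, exon lengths and shared 50-base words come from GENCODE M21.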

Additional observations from a re-analysis of the deposited data

How the results depend on the processing

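By label, 0 members passed under edgeR, DESeq2, limma-voom, TMM scaling, pseudocounts of 0.5 and 5, no filter, a mean of at least 20, the replicate block and each library left out. The replicate block used the numbers in the titles and gave 0 calls. Libraries with the same number did not deviate together (correlations of -0.53 and -0.69). Positive 1 and negative 2, which form the first set, did (0.69), and the deviations of the libraries labelled positive mirror each other. These correlations therefore cannot tell whether the numbers pair libraries. In the deposited comparison 33 members passed, and 31 at an adjusted p of 0.01. Over the same division the counts were 34 in limma, 33 in edgeR, 39 in DESeq2 and 35 in limma with TMM scaling, which was chosen after seeing the data. Leaving out 1 library gave 26 to 34; the 26 came without the library labelled positive 1. No member with a mean of at least 100 and a call turned its direction under these settings. For the 3 called members with 0 reads in the second set, depth allows a lower bound of the fold only.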
